A study of Mus musculus with 42 samples.

Results

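The genes described here mark the sparse microvillous cells of the mouse main olfactory epithelium. They are 6 genes of tuft-like cells (Trpm5, Chat, Pou2f3, Gnat3, Gnb3 and Il25) and 4 genes of ionocyte-like cells (Ascl3, Cftr, Foxi1 and Coch). These 10 genes were taken by name from the 44674 genes counted, with no threshold on their values but with earlier results of these data known.

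The study captured activated olfactory cells to ask which receptors food odours drive. Male adult C57BL/6NCrl mice, 8 to 12 weeks old, were exposed for 1 h to no odour (NoOdour, 5 pools) or to the odour of normal chow diet (NCD, 6 pools), of a bacon-flavoured diet (BFD, 5 pools) or of a lard-based high-fat diet (HFD_lard, 5 pools). Each pool joined 4 epithelia, so that single animals cannot be told apart and the spread given is that between pools. From each of the 21 pools, ribosomes with phosphorylated S6, a mark that recent activity adds, were captured with an antibody, and the RNA of this pulldown and of the whole homogenate (input) was sequenced as a library each. The summed count ran from 25392812 to 36738330 in the 21 pulldown libraries (median 30313284) and from 24839555 to 36781553 in the 21 input libraries (median 31457188).

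Some libraries stood apart from the others. Counts of 311 ribosomal RNA genes made up 24.7% ± 3.63 (SD, n = 5) of the NoOdour inputs and 13% ± 2.8 (n = 16) of the inputs with an odour, and the groups did not overlap (19.2 to 28.1% against 9.38 to 18.9%). In the pulldown the same share was 19.1% ± 4.92 without and 11.2% ± 2.6 with an odour, with overlap (11.6 to 23.1% against 8.12 to 17.5%). The pulldown of BFD pool 1 held 112 CPM (the count scaled to the size of its library, after TMM) of Il33, a gene of supporting and basal cells, against 29.7 to 34.2 CPM in the other BFD pulldowns. The input of NoOdour pool 4 was the highest of its group in Ascl3 and the lowest in Cftr, as given below.

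Microvillous cells are non-neuronal cells with stubby apical processes, scattered between the sensory and supporting cells. The tuft-like kind uses the cascade known from taste cells, in which a G protein of gustducin type activates phospholipase C, calcium leaves its stores and the channel encoded by Trpm5 opens. These cells need the transcription factor encoded by Pou2f3 and can release acetylcholine, the cytokine encoded by Il25 and lipid mediators. Ionocyte-like cells move protons and chloride and are specified by the forkhead factor encoded by Foxi1.

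The ionocyte-like genes were plainly present and most tuft-like genes were near 0. On the scale of CPM per kilobase of exonic sequence, on which levels of different genes can be compared, the mean level over the 21 inputs was 30.9 ± 4.93 (SD) for Coch, 28.4 ± 5.39 for Ascl3 and 17.6 ± 1.46 for Foxi1. Lower in that order came Pou2f3 at 2.66 ± 0.357, Cftr at 0.965 ± 0.15, Gnat3 at 0.311 ± 0.114, Trpm5 at 0.23 ± 0.0508, Gnb3 at 0.108 ± 0.0461, Il25 at 0.0755 ± 0.0582 and Chat at 0.0245 ± 0.0176. Coch and Ascl3 did not differ beyond their spread, nor did Gnat3 and Trpm5, Gnb3 and Il25, or Il25 and Chat. In the 21 pulldowns the order on the same scale was Ascl3 at 57.9 ± 13.7, Coch at 38.4 ± 7.26, Foxi1 at 19.2 ± 2.63, Pou2f3 at 3.13 ± 0.352 and Cftr at 0.963 ± 0.182, with the remaining 5 genes at 0.102 or less.

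In counts, Trpm5, the gene that gives the tuft-like cells their usual name, reached 24 to 68 per input library and 5 to 32 per pulldown library. Chat, the enzyme that makes acetylcholine, summed to 79 counts over all inputs and 15 over all pulldowns, and 14 of the 21 pulldowns had none. Il25 summed to 53 and 54 counts, with no count in 2 inputs and 5 pulldowns. The label of tuft-like cells thus rests here mostly on Pou2f3, with 179 to 337 counts per input library and 184 to 439 per pulldown library, while its other defining markers lay close to 0. The filter on low counts passed 8 of the 10 genes. Chat and Il25 did not pass and were not tested, and Gnat3 also failed where pulldown libraries were fitted alone.

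Positions are those of GRCm38 with the GENCODE M21 annotation. Trpm5 lies on the minus strand of chr7:143069153-143094642 with 6398 exonic bases, and part of its exons overlaps Tssc4 on the opposite strand. Ascl3 is a short gene of 700 exonic bases on the minus strand of chr7:109727465-109731726. Foxi1 (2357 exonic bases) lies on the minus strand of chr11:34204338-34208089, Coch (2998) on the plus strand of chr12:51593341-51605771 and Cftr (7765) on the plus strand of chr6:18170687-18322768. Of the 31-base words of each gene's transcripts, 2.89% in Trpm5 were shared with Tssc4 and 1.32% in Cftr with the antisense gene Gm15592, so counts of these genes are uncertain to a degree that was not measured. Trpm5 had a mean count of 16.6 in the pulldowns and 47 in the inputs, and the mean count of Tssc4 was more than 10 times as high. Ascl3, Coch, Gnat3 and Il25 shared none, and Foxi1, Gnb3 and Chat at most 0.273%.

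Trpm5 was below its own input in the pulldown of every pool. In NoOdour pools 1, 2, 3, 4 and 6 the pulldown held 0.473, 0.399, 0.197, 0.375 and 0.997 CPM of Trpm5 and the input 1.58, 1.35, 0.992, 1.12 and 1.44 CPM. In the 6 NCD pools the pulldown ran from 0.27 to 0.919 CPM (median 0.507) and the input from 0.719 to 2.05 CPM (median 1.53). The pulldown was thus low in all of these pools, and only NoOdour pool 6 and NCD pool 1 came near their inputs. In BFD pools 1 to 5 the pulldown held 0.724, 0.544, 0.324, 0.984 and 0.919 CPM and the input 1.42, 1.12, 1.51, 1.55 and 1.49 CPM. In HFD_lard pools 1, 2, 3, 5 and 6 the pulldown held 0.387, 0.368, 0.334, 0.376 and 0.638 CPM and the input 1.58, 1.87, 1.9, 1.65 and 1.48 CPM. Pulldown levels overlapped between all 4 odour groups, as did input levels.

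The log2 difference of pulldown from input for Trpm5 was -1.47 ± 0.31 (SE) without odour, with an adjusted p of 0.000241 in the quasi-likelihood test of edgeR after Benjamini-Hochberg adjustment, and the pulldown was lower in 5 of 5 pools. It was -1.39 ± 0.27 (adjusted p 6.88e-05) with NCD, -1.05 ± 0.29 (0.00237) with BFD and -2.01 ± 0.30 (1.89e-06) with HFD_lard, lower in every pool of each group. A gene counts as called when its adjusted p is under 0.001, so Trpm5 was called lower in 3 of the 4 groups. These differences are relative to the input of the same pool and are no measure of cell number. For the level in the bulk input, fewer cells of a type and less RNA per cell cannot be told apart. The NoOdour call rests on few counts, and it was lost without NoOdour pool 1 (-1.40, adjusted p 0.00182), pool 2 (-1.42, 0.00147), pool 3 (-1.34, 0.00179) or pool 4 (-1.45, 0.001 after rounding). Over the 8 other settings of the fit its adjusted p ran from 3.68e-05 to 0.00744, and it was not called with ribosomal RNA as a covariate (-1.64) or in a fit of the NoOdour pools alone (-1.51).

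Gnat3, the alpha subunit of gustducin, was lower in the pulldown in all 21 pools too, at 0 to 8 counts per pulldown against 6 to 26 per input, and 4 pulldowns had no count. It passed the filter only through its input counts (mean 13.7, against 2.19 in the pulldowns), so its differences rest on very few pulldown counts. A gene with so few pulldown counts could pass only where its input was higher, so the filter itself favoured a lower pulldown. With a prior count of 2 the log2 ratio of pulldown to input lay between -3.36 and -0.88. The fitted difference was -1.97 ± 0.59 (adjusted p 0.00554) without odour, -2.84 ± 0.57 (8.87e-05) with NCD, -2.36 ± 0.57 (0.000763) with BFD and -3.24 ± 0.62 (6.24e-05) with HFD_lard. The BFD call was lost without any 1 of 12 pools (NoOdour 1, 2, 3 or 6, NCD 3, BFD 1, 2, 3, 4 or 5, HFD_lard 2 or 5), where the difference lay between -2.70 and -2.05 and the adjusted p went up to 0.00652. With ribosomal RNA as a covariate the NCD and HFD_lard calls were lost (-2.64, adjusted p 0.00163, and -2.96, 0.00294). The other settings gave adjusted p values from 8.2e-06 for NCD and from 9.13e-06 for HFD_lard. With no filter beyond 1 count the difference was -2.92 (2.91e-05) with NCD, -2.38 (0.000694) with BFD and -3.29 (2.12e-05) with HFD_lard.

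Gnb3, a beta subunit that partners gustducin, had 3 to 19 counts in any library and was called in no group. Its log2 ratio was 0.85, -0.98, -0.14, 0.01 and -0.37 in NoOdour pools 1, 2, 3, 4 and 6, and ran from -1.14 to 0.66 (median -0.32) in the NCD pools. It was -0.93, -1.27, 0.62, -1.15 and -1.31 in BFD pools 1 to 5, and 1.88, 0.84, 0.33, 0.87 and -0.31 in HFD_lard pools 1, 2, 3, 5 and 6. Of the BFD pools 4 of 5 lay below 0 and of the HFD_lard pools 4 of 5 above it, and both groups overlapped with NoOdour and with each other. The fitted difference of pulldown from input was -1.08 (adjusted p 0.0472) with BFD and 0.85 ± 0.43 (adjusted p 0.0839) with HFD_lard.

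Pou2f3, the transcription factor that tuft cells need, was the only tuft-like gene with more than 100 counts in each library and was called in no comparison. In the pulldown it stood at 7.91, 8.72, 8.94, 9.14 and 8.7 CPM in NoOdour pools 1, 2, 3, 4 and 6, between 7.25 and 11.2 CPM (median 10) in the NCD pools, at 9.09, 10.2, 9.55, 9.21 and 9.75 CPM in BFD pools 1 to 5, and at 10.7, 11.5, 11, 9.82 and 10.4 CPM in HFD_lard pools 1, 2, 3, 5 and 6. All 5 HFD_lard pulldowns, 4 of 5 BFD pulldowns and 4 of 6 NCD pulldowns were above every NoOdour pulldown, and NCD pool 2 was below them all. For such counts of pools, here and for the genes that follow, the share over all genes was not counted. In the inputs the group means were 8.02 ± 0.845 (SD, n = 5), 7.96 ± 0.676 (n = 6), 7.35 ± 0.76 (n = 5) and 9.54 ± 0.969 CPM (n = 5) in the same order, and 4 of 5 HFD_lard inputs lay above every NoOdour input. The log2 difference of pulldown from input was 0.12 ± 0.10 (adjusted p 0.332), 0.28 ± 0.09 (0.00778), 0.38 (0.00158) and 0.17 in that order.

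Counted over the 10 genes, 2 were called without odour (Trpm5 lower, Ascl3 higher), beside 35.8% of the 21168 genes tested. With NCD 4 were called beside 46% of genes, with BFD 2 beside 41.3% and with HFD_lard 4 beside 42.7%. The calls were Trpm5 and Gnat3 lower with Ascl3 and Coch higher for NCD and HFD_lard, and Gnat3 lower with Ascl3 higher for BFD. Only 8 of the 10 genes were tested, so nothing about them is read from how these counts stand to the shares of all genes. The calls with NCD, BFD and HFD_lard include Gnat3, which passed the filter through its input counts. DESeq2 called the same numbers, and without NCD pool 2 edgeR called 5 with NCD and 3 with BFD. Of the tuft-like genes tested without odour, 1 of 4 was lower and none higher, with a median log2 difference of -0.80. Of the ionocyte-like genes, 1 of 4 was higher and none lower, with a median of 0.13, beside 4196 genes higher, 3377 lower and a median of 0.01 over all genes tested.

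**Figure D1:**
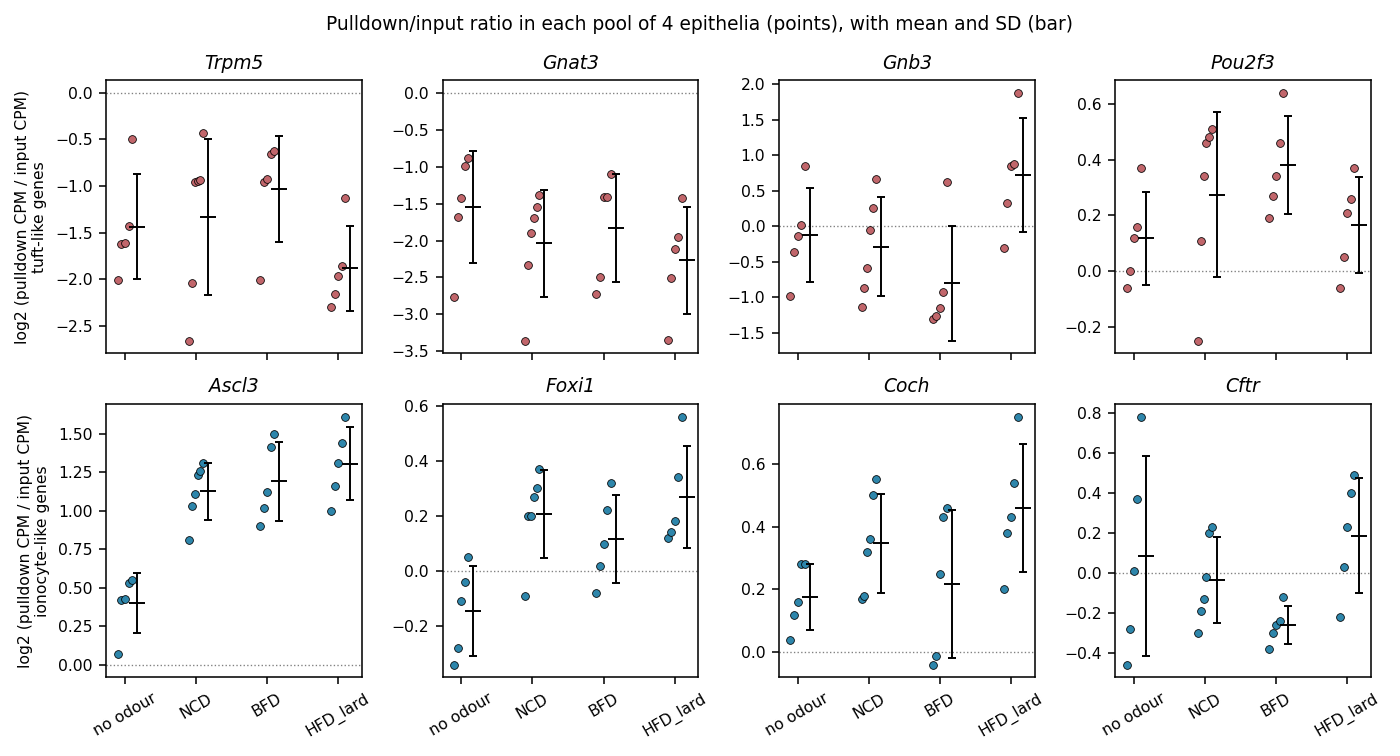
Log2 of pulldown CPM over input CPM (vertical axis) for each pool (points) by odour group (horizontal axis), with the mean and SD, for the tuft-like genes that were tested (top, red) and the ionocyte-like genes (bottom, blue), and a dotted line at 0. Trpm5 and Gnat3 lie below 0 in all 21 pools, and for Ascl3 all 16 pools with an odour lie above the 5 pools without. Gnat3 passed the filter through its input counts, and the share of all genes that separate as Ascl3 does was not counted.

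Other genes of tuft cells went in more than 1 direction in the pulldown without odour. Of 8 further genes of the taste-type cascade 6 were tested, and 2 were higher and 1 lower (median 0.58), beside 35.8% of all genes tested called in this contrast (4196 higher and 3377 lower of 21168). Rgs13, a regulator of G protein signalling, was lower by a log2 difference of -2.77 ± 0.42 (adjusted p 5e-06). Gng13, a gamma subunit that sensory neurons also use, was higher at 0.90 ± 0.17 (0.000111), as was the taste receptor gene Tas1r1 at 0.81 ± 0.16 (0.000129). Gng13 alone made up 969 of the 983 CPM summed over these 8 genes in the NoOdour pulldowns. Leaving out NoOdour pool 1 ended the Gng13 call (0.82, adjusted p 0.00104), and leaving out NoOdour pool 4 (0.67, 0.00184) or pool 6 (0.72, 0.00164) ended that of Tas1r1. With ribosomal RNA as a covariate Rgs13 (-1.97, 0.0118) and Tas1r1 (0.71, 0.02) were not called, nor was Tas1r1 in the NoOdour pools alone (0.78, 0.00487), and their smallest adjusted p over the settings was 3.92e-10 and 4.34e-05.

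Among 12 further tuft cell genes 10 were tested and 3 were lower (median -0.07), beside 3377 lower of all 21168 genes tested. The transcription factor gene Spib was lower at -1.63 ± 0.26 (adjusted p 9.78e-06), and the adaptor genes Sh2d6 and Sh2d7 at -1.50 ± 0.27 (2.87e-05) and -2.77 ± 0.46 (3.17e-05). The calls of Spib (-1.31, 0.0105), Sh2d6 (-1.62, 0.00255) and Sh2d7 (-3.32, 0.00134) were lost with ribosomal RNA as a covariate, and that of Sh2d7 also in the NoOdour pools alone (-2.83, 0.00126), while the smallest adjusted p over the settings was 5.41e-10, 1.05e-06 and 7.48e-09. Dclk1, which neurons use too, gave 138 of the 169 CPM of this list in the NoOdour pulldowns. Of the genes that handle acetylcholine 3 of 5 were tested and 1 was lower (against 35.8% of all genes called), the cholinesterase gene Bche at -0.60 ± 0.11 (median of the list -0.09), not called with ribosomal RNA as a covariate (-0.68, 0.00121) or in the NoOdour pools alone (-0.63, 0.00114) but down to 5.46e-07 in other settings. Ache and Slc44a4 stood at -0.09 ± 0.20 and 0.01 ± 0.07, and the choline and acetylcholine transporter genes Slc5a7 and Slc18a3 had no count in any NoOdour pulldown.

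Of 6 genes of eicosanoid synthesis, all tested, 1 was lower, where 35.8% of all genes were called, the cyclooxygenase gene Ptgs1 at -0.59 ± 0.13 (adjusted p 0.000398, median of the list 0.18), and this call was lost without NoOdour pool 1 (-0.62), 2 (-0.61) or 4 (-0.47). It was also lost for Ptgs1 with ribosomal RNA as a covariate (-0.29, 0.22) and in the NoOdour pools alone (-0.62, 0.00135), with an adjusted p down to 3.8e-05 in other settings. Alox5ap and Ltc4s, which act in leukotriene synthesis, stood at 0.40 ± 0.14 (0.0171) and 0.99 ± 0.41 (0.0412). Of 6 cytokine and receptor genes listed around Il25, 4 were tested and 1 was lower, with the same share over all genes. This was the alarmin gene Il33, named above as a gene of supporting and basal cells, at -2.21 ± 0.23 (adjusted p 2.19e-07, median of the list -0.16). The receptor genes Il4ra and Il17ra stood at 0.38 ± 0.09 (0.00121) and -0.24 ± 0.09 (0.0267) and were not called.

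Genes of other cell types were called in the same contrast, in which 35.8% of all genes tested were (4196 higher and 3377 lower of 21168). All 7 sustentacular cell genes tested were lower in the pulldown without odour (median -1.67), with a summed level of 3660 ± 463 CPM against 10700 ± 1470 CPM in the inputs (SD, n = 5), and the most abundant were Cyp2a5 and Cyp2g1. Of 5 horizontal basal cell genes 4 were lower (median -2.01, summed level 18.1 ± 5.11 against 72.3 ± 3.13 CPM, Krt5 the most abundant). Of 10 genes of mature sensory neurons 5 were higher and 1 lower (median 0.21, summed level 17500 ± 1910 against 16500 ± 1530 CPM, Omp the most abundant), and all 5 macrophage genes were higher (median 1.18). No defining marker of these lists was at 0. The part that the capture of other cell types has in the values of Trpm5 and Gnat3 was not tested.

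Ascl3, a basic helix-loop-helix factor of ionocyte-like cells, was the only one of the 10 genes whose ratio of pulldown to input was called higher with an odour. In NoOdour pools 1, 2, 3, 4 and 6 the pulldown held 28.1, 27.5, 29.2, 33.7 and 30.5 CPM of Ascl3 and the input 21, 20.4, 19.9, 32.1 and 21.1 CPM. In the 6 NCD pools the pulldown ran from 34.8 to 48.6 CPM (median 41.7) and the input from 17.1 to 20.2 CPM (median 19.7). The pulldown of every NCD pool was thus above every NoOdour pulldown, while 4 of the 6 inputs were below every NoOdour input. In BFD pools 1 to 5 the pulldown held 26, 45.9, 41.8, 33.4 and 40.4 CPM and the input 13.9, 16.2, 15.7, 16.5 and 18.5 CPM. In HFD_lard pools 1, 2, 3, 5 and 6 the pulldown held 50.5, 57.5, 56.1, 52.8 and 47.8 CPM and the input 18.6, 18.8, 22.6, 23.6 and 23.8 CPM. All HFD_lard pulldowns and 3 of 5 BFD pulldowns exceeded every NoOdour pulldown, BFD pool 1 was below them all, and all 5 BFD inputs were below every NoOdour input.

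As log2 ratios of pulldown to input, Ascl3 stood at 0.42, 0.43, 0.55, 0.07 and 0.53 in the NoOdour pools, between 0.81 and 1.31 (median 1.17) with NCD, at 0.90, 1.50, 1.41, 1.02 and 1.12 with BFD and at 1.44, 1.61, 1.31, 1.16 and 1.00 with HFD_lard. All 16 pools with an odour lay above all 5 without. The share of all genes whose pools separate in this way was not counted. The pulldown of Ascl3 was enriched over input by 0.40 ± 0.09 (adjusted p 0.000542 in edgeR's test) without odour, 1.13 ± 0.08 (1.2e-11) with NCD, 1.19 ± 0.09 (3.95e-11) with BFD and 1.30 ± 0.09 (7.71e-12) with HFD_lard, and the ratio was above 0 in 21 of 21 pools. With the length trend removed, these enrichments of Ascl3 were 0.19 (0.0216, not called), 0.66 (8.99e-10), 0.70 (2.96e-09) and 0.86 (5.11e-11) in the same order. Over NoOdour the ratio rose by 0.73 ± 0.12 (adjusted p 0.000756) with NCD, 0.79 ± 0.13 (0.000178) with BFD and 0.90 ± 0.13 (6.49e-05) with HFD_lard. Averaged over the 3 odours the rise was 0.81 ± 0.10 (adjusted p 1.17e-05), or 1.75-fold, and these comparisons share the 5 pools without odour.

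Of the 10 genes, the ratio of 1, Ascl3, was called over NoOdour with NCD beside 0.524% of all genes tested, with BFD beside 3.78%, with HFD_lard beside 1.22% and with any odour beside 5.47%, and DESeq2 also called 1 each time. At an adjusted p under 0.05, 2 of 10 passed with any odour, Ascl3 and Foxi1, beside 25.8% of all genes. The median log2 change in ratio was 0.25 over the 4 ionocyte-like genes (1 higher, none lower) and -0.04 over the 4 tuft-like genes tested (none called). Over all genes tested it was -0.01, with 657 higher and 501 lower.

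The calls for HFD_lard and for any odour held without any single pool (0.83 to 0.98 and 0.73 to 0.85, largest adjusted p 0.000383 and 7.13e-05). The NCD call did not, since it was lost without any 1 of 13 pools (NoOdour 1, 2, 3 or 4, NCD 1, 3, 4, 5 or 6, BFD 5, HFD_lard 1, 3 or 5), at 0.65 to 0.76 with an adjusted p of up to 0.00284. That for BFD was lost without BFD pool 2 (0.71, adjusted p 0.00107) or BFD pool 3 (0.74, 0.001 after rounding). The enrichment without odour was no longer called without NoOdour pool 1 (0.40, adjusted p 0.00258), 2 (0.38, 0.00308), 3 (0.35, 0.00541) or 6 (0.37, 0.00406). With no replicate block, that is without a term for each pool, it was 0.38 (0.00444), and the rise with NCD was 0.75 (0.00201). The enrichment without odour was called in 3 of 8 other settings, at 0.19 to 0.52. The adjusted p over these settings ran from 0.000215 to 0.0216 for it, from 6.91e-06 to 0.00434 for the rise with NCD (called in 4 of 8) and from 3.86e-07 to 0.0398 for that with BFD (called in 5 of 8).

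Transcript length and the ribosomal RNA share moved with these values. Ascl3 has 700 exonic bases, and genes under 1000 bases had a median change in ratio with any odour of 0.26 (quartiles -0.11 and 0.61, 1829 genes) and in input of -0.21, while genes over 8000 bases stood at -0.22 and 0.19. With each library's trend on length removed, an alternative chosen after the data were seen, the Ascl3 ratio was higher by 0.54 ± 0.08 with any odour (adjusted p 5.53e-05) and 0.66 with HFD_lard (0.000103). Under it NCD and BFD stood at 0.46 (0.00336) and 0.50 (0.00116) and were not called. With ribosomal RNA as a covariate, Ascl3 stood at 0.73 with any odour (0.000779), 0.86 with HFD_lard (0.000263), 0.67 with NCD (0.00434) and 0.66 with BFD (0.0398). Over the 7 other settings for any odour the change lay between 0.54 and 0.83 and the adjusted p between 9.7e-11 and 0.000779. The part of RNA quality in the rise was not tested.

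**Figure D2:**
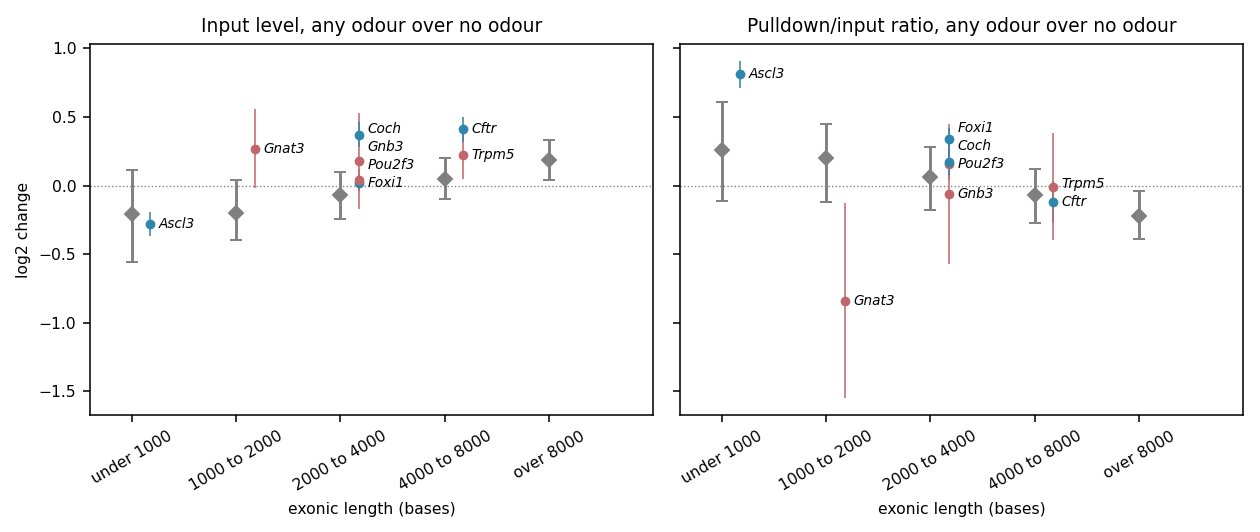
Median log2 change with any odour over NoOdour (vertical axis, diamonds, bars for the quartiles) of genes in 5 classes of exonic length in bases (horizontal axis), for the input (left) and the ratio of pulldown to input (right), with the 8 tested microvillous genes as points ± SE at their own length. The ratio of Ascl3 (0.81) lies above the upper quartile of its class (0.61), and its input change (-0.28) lies within the quartiles.

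Foxi1, the forkhead factor that specifies ionocytes, differed mainly in the pulldown. The pulldown held 31.2, 39.8, 35.1, 39.3 and 40.1 CPM in NoOdour pools 1, 2, 3, 4 and 6, 43.6 to 51.8 CPM (median 49.4) in the NCD pools, 39.2, 44.9, 42.5, 41.8 and 46.5 CPM in BFD pools 1 to 5, and 51.7, 50.8, 54.1, 49.5 and 49.7 CPM in HFD_lard pools 1, 2, 3, 5 and 6. Of the 16 pulldowns with an odour, 15 were above every NoOdour pulldown, and BFD pool 1 fell inside their range. The input means were 40.9 ± 3.97 (SD, n = 5), 42.4 ± 2.19 (n = 6), 39.6 ± 3.25 (n = 5) and 42.7 ± 4.42 CPM (n = 5) and overlapped throughout. The log2 ratio of pulldown to input was -0.34, 0.05, -0.11, -0.28 and -0.04 in the NoOdour pools, and 13 of the 16 pools with an odour lay above all of them. The ratio changed by 0.35 (adjusted p 0.021) with NCD, 0.26 (0.0728) with BFD, 0.41 (0.00962) with HFD_lard and 0.34 ± 0.08 (0.00411) with any odour, none of them called.

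Coch, which encodes the secreted protein cochlin, was the most abundant of the 10 genes in CPM. Its pulldown level was 69.1, 74, 78.4, 103 and 105 CPM in NoOdour pools 1, 2, 3, 4 and 6, 116 to 136 CPM (median 128) with NCD, 82.4, 118, 122, 122 and 124 CPM in BFD pools 1 to 5, and 146, 125, 133, 131 and 126 CPM in HFD_lard pools 1, 2, 3, 5 and 6. The inputs held 67, 61, 72.3, 92.2 and 86.6 CPM without odour, 89.3 to 106 CPM (median 102) with NCD, 82.9, 87.6, 126, 103 and 90.1 CPM with BFD, and 86.9, 109, 102, 96.9 and 86.3 CPM with HFD_lard. Of the 16 pulldowns with an odour 15 exceeded every NoOdour pulldown, again without BFD pool 1, and of the 16 inputs 10 exceeded every NoOdour input. Since both sides were higher, the ratio stood apart less, at means of 0.18, 0.35, 0.22 and 0.46 in the order NoOdour, NCD, BFD and HFD_lard. The pulldown was enriched over input by 0.35 ± 0.07 (adjusted p 0.000103) with NCD and 0.46 ± 0.08 (9.63e-06) with HFD_lard, above 0 in 6 of 6 and 5 of 5 pools. The NCD enrichment was not called without NCD pool 1 (0.31, 0.00112), with no replicate block (0.35, 0.00371) or with ribosomal RNA as a covariate (0.25, 0.00416), and it was called in 5 of 8 other settings, with an adjusted p down to 4.2e-06. The HFD_lard enrichment stood at 0.34 (0.00104) with that covariate and was called in the 7 other settings, down to 2.9e-07. Without odour the difference was 0.18 ± 0.08 (0.0526), and the change in ratio with any odour was 0.17 ± 0.09 (0.176).

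Cftr, the chloride channel that dominates ionocytes of the airway, lay near 1 on the pulldown-to-input scale and differed mainly in the input. Inputs held 7.17, 5.89, 6.36, 3.91 and 6.41 CPM in NoOdour pools 1, 2, 3, 4 and 6, 7.31 to 9.12 CPM (median 7.91) with NCD, 8.17, 7.88, 8.51, 7.69 and 8.24 CPM in BFD pools 1 to 5, and 7.7, 8.44, 7.37, 7.75 and 6.82 CPM in HFD_lard pools 1, 2, 3, 5 and 6. Of the 16 inputs with an odour 15 were above every NoOdour input, with HFD_lard pool 6 inside their range. Pulldown means were 6.29 ± 1.35 (SD, n = 5), 7.98 ± 0.825 (n = 6), 6.76 ± 0.302 (n = 5) and 8.77 ± 1.54 CPM (n = 5), with overlap between all groups and NoOdour. Mean log2 ratios were 0.08, -0.03, -0.26 and 0.19, no pool with an odour lay outside the NoOdour range, and the change in ratio with any odour was -0.12 ± 0.15 (adjusted p 0.626).

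In the inputs, 1 change over NoOdour was called. The log2 change of Ascl3 over NoOdour was -0.26 ± 0.11 (adjusted p 0.073) with NCD, -0.50 ± 0.11 (0.000944, lower in 5 of 5 pools) with BFD, -0.09 (0.61) with HFD_lard and -0.28 ± 0.09 (0.0129) with any odour. That of Cftr was 0.45 (0.00502), 0.44 (0.00267), 0.35 (0.0262) and 0.41 ± 0.09 (0.00107), and that of Coch 0.39 (0.0113), 0.37 (0.0101), 0.34 (0.0288) and 0.37 ± 0.09 (0.00282), in the same order. Foxi1 stood at 0.05, -0.05, 0.06 and 0.02 ± 0.06 (0.832). The value of Ascl3 with any odour lay between -0.33 and -0.14 with a pool left out, and the smallest was without NoOdour pool 4 (-0.14, 0.121). The Ascl3 call with BFD was lost without any 1 of 14 pools (NoOdour 1 or 4, NCD 1, 2, 3, 4, 5 or 6, BFD 1, 2, 3 or 4, HFD_lard 3 or 5), at -0.37 without NoOdour pool 4 and with an adjusted p of up to 0.00422. It was also lost with the length trend removed (-0.17, adjusted p 0.124), with ribosomal RNA as a covariate (-0.05, 0.991) and in a fit of the NoOdour and BFD inputs alone (-0.52, 0.00687), and it was called in 3 of 7 other settings, with an adjusted p down to 9.45e-05. For any odour, Cftr passed the threshold without NoOdour pool 1 (0.49, 0.000587) or HFD_lard pool 6 (0.43, 0.000833), and Coch with the length trend removed (0.44, 0.000971).

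With ribosomal RNA as a covariate, the input changes with any odour of Ascl3, Cftr and Coch stood at 0.10 (adjusted p 0.951), -0.02 (0.988) and 0.10 (0.955). The smallest adjusted p over the other settings was 0.00774, 7.13e-05 and 0.000396 in this order. This share separates the NoOdour inputs from the rest, so its part and that of the odour in these input values cannot be told apart.

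By edgeR, 0 of the 10 genes were called in the input with NCD over NoOdour, where 0.998% of the 20451 genes tested were called, 3 passed at an unadjusted p under 0.05 and DESeq2 called 1. With BFD 1 was called beside 13.7% of genes, and DESeq2 called 2. With HFD_lard edgeR called 0 beside 0.963%, 3 passed at an unadjusted p under 0.05 and DESeq2 called 0. With any odour edgeR called 0 beside 12%, 3 passed at an unadjusted p under 0.05 and DESeq2 called 2, Cftr (0.41, adjusted p 7.13e-05) and Coch (0.36, 0.000396). At an adjusted p under 0.05 the count with any odour was 3 of 10 beside 37.2% of genes. The median log2 change was 0.20 over the 4 tuft-like and 0.19 over the 4 ionocyte-like genes tested, beside -0.01 over all genes. Of the tuft-like genes, Trpm5 stood at 0.22 ± 0.17 (0.327), Gnat3 at 0.27 (0.495), Gnb3 at 0.18 (0.738) and Pou2f3 at 0.04 (0.76).

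**Figure D3:**
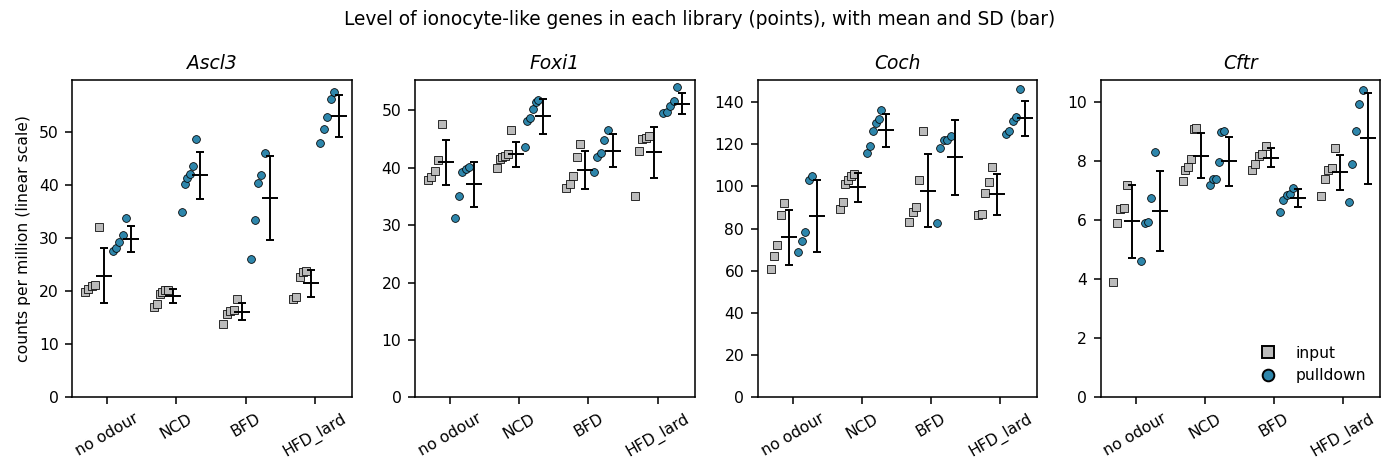
Level in CPM (vertical axis, linear from 0) of the 4 ionocyte-like genes in each input (grey squares) and pulldown library (blue circles) by odour group (horizontal axis), with the mean and SD. Ascl3 separates the pulldown from the input in the groups with an odour (52.9 against 21.5 CPM on average with HFD_lard, and 29.8 against 22.9 CPM without odour), while Foxi1 input means stay between 39.6 and 42.7 CPM.

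Fitted on the pulldown libraries alone, an alternative chosen after the data were seen, 3 of the 4 ionocyte-like genes were called higher with any odour. These were Ascl3 at 0.54 ± 0.09 (adjusted p 6.51e-05, above every NoOdour pulldown in 14 of 16), Foxi1 at 0.35 ± 0.05 (2.16e-05, 15 of 16) and Coch at 0.52 ± 0.09 (0.000128, 15 of 16), 3 of 10 genes beside 8.38% of the 19765 tested, and DESeq2 called 3. With HFD_lard the same 3 were called, at 0.82, 0.46 and 0.62, beside 5%, and DESeq2 called 3. With NCD 2 were called, Coch at 0.54 and Foxi1 at 0.39, beside 4.11%, and DESeq2 called 3, while Ascl3 stood at 0.47 (0.00178) by edgeR. With BFD edgeR called 0 beside 4.22%, 3 passed at an unadjusted p under 0.05 and DESeq2 called 0, with Ascl3 at 0.33, Foxi1 at 0.21 and Coch at 0.41. Cftr stood at 0.30 (0.0388), Pou2f3 at 0.20 (0.0519) and Trpm5 at 0.15 (0.798) with any odour. The ribosomal RNA share of the pulldowns was 19.1% without and 11.2% with an odour. The pulldowns alone were not fitted with this share as a covariate or with the length trend removed, so its part in these calls was not tested.

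Single pools decided several of these pulldown values. Without BFD pool 1, whose pulldown stood apart, Ascl3 and Coch were called with BFD at 0.43 (adjusted p 0.000287) and 0.50 (0.000335). Without NCD pool 2 (0.52, 0.000934), BFD pool 1 (0.47, 3.36e-05) or BFD pool 2 (0.47, 0.000954), Ascl3 was called with NCD. Coch lost its call with NCD without any 1 of 10 pools (NoOdour 1, 2 or 3, NCD 1, 2, 3, 4 or 5, HFD_lard 3 or 5), at 0.48 to 0.56 and an adjusted p of up to 0.00336. With HFD_lard it lost it without NoOdour pool 2 (0.57, 0.00124), NoOdour pool 3 (0.59, 0.00124) or HFD_lard pool 1 (0.58, 0.00107), and with any odour without NoOdour pool 2 (0.48, 0.00106) or 3 (0.49, 0.00106). Foxi1 with NCD, HFD_lard and any odour, and Ascl3 with HFD_lard and any odour, were called without each of the 21 pools. Leaving out a pool does not remove the difference in ribosomal RNA share between the groups.

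Between odours no change in ratio was called. By edgeR, 0 of 10 genes were called for BFD over NCD (0.00945% of all genes, 0 at an unadjusted p under 0.05), 0 for HFD_lard over NCD (0.0236%, 0 unadjusted) and 0 for HFD_lard over BFD (0.0378%, 4 unadjusted), and DESeq2 called 0 in each. The 4 were Gnb3 at 1.93 ± 0.63 (adjusted p 0.421), Trpm5 at -0.96 ± 0.42 (0.58), Cftr at 0.46 ± 0.18 (0.514) and Coch at 0.24 ± 0.11 (0.595). The ratio of Ascl3 differed by 0.07 ± 0.12, 0.18 ± 0.12 and 0.11 ± 0.13 between these pairs.

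In the inputs, edgeR called 0 for BFD over NCD (0.108% of all genes, 1 at an unadjusted p under 0.05), 0 for HFD_lard over NCD (0.0538%, 1 unadjusted) and 0 for HFD_lard over BFD (0.0831%, 2 unadjusted), and DESeq2 called 0 in each. The 2 were Pou2f3 at 0.38 ± 0.09 (adjusted p 0.0573) and Ascl3 at 0.41 ± 0.11 (0.0744). For both, group means were highest with HFD_lard and lowest with BFD among the 3 odours.

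The wider set of ionocyte genes gave 1 more call in the ratio. Of 8 further genes 7 were tested, and with any odour 1 was higher and none lower (median 0.34), beside 5.47% of all genes tested called (657 higher and 501 lower). This was Stap1, an adaptor gene, at 0.56 ± 0.09 (adjusted p 6.11e-05, above every NoOdour pool in 15 of 16), named after its value was seen. Its pulldown level was 23.5, 24.8, 25, 29.2 and 29.5 CPM in NoOdour pools 1, 2, 3, 4 and 6, 34.9 to 40.6 CPM with NCD, 31.1, 33.8, 33.8, 30.2 and 37 CPM in BFD pools 1 to 5, and 49.7, 46.1, 49.5, 46.2 and 44.9 CPM in HFD_lard pools 1, 2, 3, 5 and 6. All 16 pulldowns with an odour were above all 5 without, and the call held without any single pool (0.49 to 0.63). Foxi2, Hepacam2 and Moxd1 stood at 0.28 ± 0.13 (0.109), 0.48 ± 0.14 (0.0145) and 0.40 ± 0.11 (0.0107), all 3 named after their values were seen, and Tfcp2l1 at -0.40 ± 0.12 (0.0122). Foxi3 was not tested.

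In the pulldown without odour, 2 of these 7 genes were lower than input and 1 higher (median 0.07), beside 35.8% of all genes called: the receptor gene P2ry14 at -1.27 ± 0.18 and Stap1 at -0.33 ± 0.07 (adjusted p 0.000534), and the transcription factor gene Dmrt2 at 0.86 ± 0.16. The Stap1 call was lost without NoOdour pool 1 (-0.30, 0.00397) or 4 (-0.25, 0.00523) and in the NoOdour pools alone (-0.36, 0.00579). Neither Stap1 (-0.37, 0.0103) nor Dmrt2 (0.71, 0.0174) was called with ribosomal RNA as a covariate, and their smallest adjusted p over the settings was 3.53e-05 and 2.4e-06. In the input with any odour 1 of 7 was higher (median 0.10), beside 12% of all genes called, the transcription factor gene Tfcp2l1 at 0.45 ± 0.08 (0.000205), most abundant of the list at 43.3 CPM without odour and 57.7 to 61.1 CPM with. Without NoOdour pool 2 it stood at 0.43 (0.00118), and with ribosomal RNA as a covariate at -0.04 (0.969, against 1.66e-06 in the setting with the smallest adjusted p). Dmrt2 stood at 0.22 ± 0.12 (0.173).

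Of 9 genes of proton pumps and chloride transport 8 were tested, and without odour 2 were higher and 3 lower in the pulldown (median -0.18), beside 4196 higher and 3377 lower of all 21168 genes tested (35.8% called). The pump subunit gene Atp6v1c2 was lower at -1.18 ± 0.10, and Atp6v1g3 and Atp6v0d2 were higher at 1.24 ± 0.15 and 0.81 ± 0.10. The other lower ones, Atp6v1b1 and Atp6v0a4, named after their values were seen, stood at -1.20 and -1.47, and neither was called with ribosomal RNA as a covariate (-1.29, 0.0015, and -1.53, 0.00132, against 1.72e-11 and 1.39e-11 at the smallest). No gene of this list was called in the ratio with any odour (median -0.11, 5.47% of all genes called), and the channel subunit gene Bsnd, named after its value was seen too, stood at 0.97 ± 0.28 (adjusted p 0.0125). In the input 1 was lower, beside 12% of all genes called, Atp6v1g3 at -0.76 ± 0.11 (adjusted p 3.24e-05, from 2.41e-07 over other settings), which was not called with ribosomal RNA as a covariate (-0.63, 0.66), while Atp6v0a4 stood at 0.24 ± 0.06 (0.0036). The transporter gene Slc12a2, which gland cells also use, gave 136 of the 222 CPM summed over the list in the NoOdour pulldowns.

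Among the further tuft cell lists, with 6, 10, 3, 6 and 4 genes tested, the ratio with any odour was called for 2 genes, beside 5.47% of all genes tested. Gng13 was higher at 1.03 ± 0.19 (adjusted p 0.000673, above every NoOdour pool in 15 of 16) and Dclk1 lower at -0.35 ± 0.07 (0.000936), both named after their values were seen. The Gng13 call was lost without any 1 of 14 pools (all 5 NoOdour pools, NCD 3, 4, 5 or 6, BFD 2 or 5, HFD_lard 1, 3 or 5, at 0.89 to 1.10). The Dclk1 call held only without BFD pool 1, HFD_lard pool 1 or HFD_lard pool 6, and without each of the other 18 it stood at -0.37 to -0.27. With the length trend removed Dclk1 stood at -0.06 (0.515, against 4.74e-05 in the setting with the smallest adjusted p). With ribosomal RNA as a covariate Dclk1 stood at -0.26 (0.0369) and Gng13 at 0.82 (0.0208), with DESeq2's size factors Dclk1 at -0.35 (0.00108), and with no filter beyond 1 count Gng13 at 1.02 (0.00172, against 5.51e-06 at the smallest), none of them called. The Gng13 ratio was called in 4 of 7 other settings, and the smallest change was 0.76 with the length trend removed (0.000937, called). The list medians were -0.14 for the taste-type cascade, -0.18 for other tuft genes, 0.07 for acetylcholine handling, -0.38 for eicosanoid synthesis and -0.40 for the list around Il25. In the input with any odour, where 12% of all genes were called, Gng13 was the 1 called gene of these lists, lower at -0.82 ± 0.17 (0.000815), a call that held only without NoOdour pool 6, NCD pool 1 or 6, BFD pool 5 or HFD_lard pool 2 or 6, out of the 21 pools (-0.90 to -0.63 over all of them). Gng13 stood at 0.42 (0.739) with ribosomal RNA as a covariate, with the length trend removed at -0.56 (0.00298) and with no filter beyond 1 count at -0.82 (0.00204), and it was called in 2 of 6 other settings, with an adjusted p down to 5.57e-05. Of the other genes of these lists in the input, Itpr3 stood at 0.29 ± 0.11 (0.0369), Dclk1 at 0.25 ± 0.06 (0.00185), Bmx at -0.31 ± 0.08 (0.00236), Bche at 0.17 ± 0.06 (0.0358), Ache at -0.18 ± 0.13 (0.297), Ptgs1 at -0.30 ± 0.07 (0.00244), Alox5ap at -0.22 ± 0.12 (0.166), Il17ra at 0.18 ± 0.05 (0.0106) and Il17rb at 0.50 ± 0.25 (0.118).

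Of 6 genes of nasal glands 3 were called higher in the ratio with any odour and none lower (median 0.90), beside 5.47% of all genes tested called in either direction, with summed pulldown levels of 7400 ± 1050 CPM without odour and 13700 ± 626, 20100 ± 3220 and 18100 ± 1070 CPM with NCD, BFD and HFD_lard, where Bpifb9b was the most abundant gene with an odour and Muc5b without. Of 10 genes of mature sensory neurons 1 was higher (median 0.07), and of 5 macrophage genes 1 was lower (median -0.39). The summed level of the 4 ionocyte-like genes in the pulldown was 159 ± 22.8, 225 ± 10.2, 201 ± 26.9 and 245 ± 9.34 CPM in the order NoOdour, NCD, BFD and HFD_lard, and that of the 6 tuft-like genes 9.6 ± 0.401, 10.8 ± 1.26, 10.6 ± 0.311 and 11.7 ± 0.53 CPM, with Coch and Pou2f3 the most abundant. In the inputs the sums were 146 ± 20.1, 169 ± 8.37, 162 ± 19.9 and 168 ± 13 CPM, and 10.1 ± 0.824, 10.4 ± 0.975, 9.83 ± 0.534 and 12.1 ± 1.03 CPM. The part of these other cell types in the values of Ascl3, Foxi1 and Coch was not tested.

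Across the 21 inputs, with the mean of each odour group removed, 28 pairs of the 8 tested genes were compared and none passed an adjusted p of 0.05 in permutation tests. Ascl3 and Cftr had a Pearson r of -0.80 (permutation p 0.0022, adjusted p 0.0616) and a Spearman rho of -0.60 (0.00652, adjusted 0.1), and r was -0.65 without the 2 pools farthest from the median of Ascl3. Foxi1 and Coch had an r of 0.64 (permutation p 0.00488, adjusted p 0.0683) and a rho of 0.64 (0.00714, adjusted 0.1), with r at 0.58 without the 2 farthest pools. For Ascl3 and Foxi1 r was 0.59 (permutation p 0.0257, adjusted p 0.18) and rho 0.52 (0.0309, adjusted 0.289), and r was 0.39 without 2 pools. On log2 CPM without TMM, r was -0.58 for Ascl3 and Cftr (permutation p 0.0681, adjusted p 0.319). It was 0.74 for Foxi1 and Coch (0.00053, adjusted 0.0148) and 0.47 for Ascl3 and Foxi1 (0.0684, adjusted 0.319). The values thus depend on the normalization, and the part of transcript length in them was not tested. Pearson r ran from -0.24 to 0.20 over the 6 pairs of tuft-like genes, from -0.80 to 0.64 over the 6 pairs of ionocyte-like genes and from -0.28 to 0.54 over the 16 mixed pairs.

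The genes most like Trpm5 in the same deviations, out of 20450, were Exoc2 (r 0.81), Samd12 (0.79), Ptprk (0.75), Gm37726 (0.74) and Olfr649 (0.73). Those most like Cftr were Frs2 (0.94), Nr2c2 (0.94), March4 (0.93), Mcm9 (0.93) and Gm26883 (0.93). These are descriptions over 21 libraries that share their preparation, with no test.

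Promoters of 7 of the 10 genes, from 250 bases before to 50 after the start of transcription, were found in the RefSeq sequences of GRCm38.p6. The sequences of the 3 genes whose pulldown level was called higher with any odour are shown, because these genes carry that result. The forkhead core TGTTTA, which on the opposite strand reads as TAAACA, occurs in 13.4% of 32851 promoters and, of the 7, only in that of Ascl3 (chr7:109731683-109731982, minus strand), where capitals mark it in each of these readings. The longer TGTTTAC, which on the opposite strand reads as GTAAACA and holds the core, occurs in 3.65% of promoters, and the octamer ATGCAAAT, with ATTTGCAT as its opposite strand, in 1.74%, and neither is in any of the 7. The E-box CAGCTG, its own reverse complement, occurs in 16.3% and is in that of Chat. The windows of Foxi1 (chr11:34208040-34208339, minus strand) and Coch (chr12:51593091-51593390, plus strand) hold none of these letters. A match describes the sequence and is no evidence of binding. The windows read, from 5′ to 3′:
Ascl3: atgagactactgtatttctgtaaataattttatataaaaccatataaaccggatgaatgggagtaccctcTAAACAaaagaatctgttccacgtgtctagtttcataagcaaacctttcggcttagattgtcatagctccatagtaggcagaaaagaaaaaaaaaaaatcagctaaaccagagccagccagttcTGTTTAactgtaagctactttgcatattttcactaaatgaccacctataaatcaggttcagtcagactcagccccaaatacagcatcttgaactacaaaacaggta
Foxi1: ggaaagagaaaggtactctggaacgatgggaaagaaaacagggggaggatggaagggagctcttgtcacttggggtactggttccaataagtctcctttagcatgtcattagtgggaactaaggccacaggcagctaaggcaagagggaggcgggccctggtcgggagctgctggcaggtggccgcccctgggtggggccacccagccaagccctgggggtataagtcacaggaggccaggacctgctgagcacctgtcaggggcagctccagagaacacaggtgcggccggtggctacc
Coch: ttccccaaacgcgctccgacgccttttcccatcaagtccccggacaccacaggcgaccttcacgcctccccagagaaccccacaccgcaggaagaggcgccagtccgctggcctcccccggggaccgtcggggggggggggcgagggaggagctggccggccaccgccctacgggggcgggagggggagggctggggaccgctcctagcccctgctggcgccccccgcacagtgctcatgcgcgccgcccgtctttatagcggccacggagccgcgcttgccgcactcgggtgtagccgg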

How the data were processed

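The deposited gene table holds expected counts that the authors estimated with Salmon on GRCm38 (nf-core rnaseq), with GENCODE M21 names. Of its 44674 genes, 556 had no name (0.525% of counts), and 30.9% of values were not whole and were rounded. The 10 genes and all lists were chosen with earlier results of these data known. R 4.3.3, edgeR 4.0.16, limma 3.58.1 and DESeq2 1.42.0 were used, while the authors used DESeq2 1.26. Genes passed filterByExpr with a minimum count of 10. A robust quasi-likelihood fit with TMM on 42 libraries had a term for each of the 21 pools and pulldown by odour terms, and another on the inputs had odour alone. Calls used a Benjamini-Hochberg adjusted p under 0.001, the study's threshold, and 0.05 as a second threshold. Log2 CPM used a prior count of 2. The biological coefficient of variation was 12% in the first fit and 11.7% in the inputs.

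A pulldown and its input came from the same pool by their labels, and this pairing was used as the replicate block. Deviations from the group means of a pulldown and its own input had a median correlation of 0.0223 (n = 21, lowest -0.0783), against -0.00423 in 90 other pairs. Of each list, up to 3 genes with the smallest p in the pulldown against input without odour and up to 2 in the input with any odour were named, with exceptions marked. Shared sequence was counted in words of 31 bases. Alternatives were DESeq2's size factors or test, no filter, other or no blocks, the compared groups alone, the second threshold, ribosomal RNA as a covariate, leaving out pools, other prior counts, a length trend and the pulldowns alone. Fits were tested on simulated data. Some items withheld for evaluation are not reported here.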

Additional observations from a re-analysis of the deposited data

Results flagged for a closer look

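In 5 of 64 groups checked, 1 library lay far from the others of its group on the log2 CPM scale, and chance flags about 1 in 20 groups. Trpm5 stood at -0.51 in the HFD_lard pool 6 pulldown (others -1.33 to -1.15) and at 0.25 in the BFD pool 2 input (others 0.57 to 0.69). Ascl3 stood at 5.01 in the NoOdour pool 4 input (others 4.32 to 4.40), Foxi1 at 5.13 in the HFD_lard pool 1 input (others 5.42 to 5.51) and Coch at 6.37 in the BFD pool 1 pulldown (others 6.89 to 6.96).

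The difference of pulldown from input itself differed between odour groups for 4 genes, by the interaction test of edgeR. Ascl3 was flagged with NCD (0.73), BFD (0.79), HFD_lard (0.90) and any odour (0.81) over NoOdour. Over NoOdour with any odour, Gng13 (1.03), Stap1 (0.56) and Dclk1 (-0.35) were flagged too.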

How the results depend on the processing

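Counts are of the 10 genes called. Without odour, 2 called in the pulldown against input became 1 with no replicate block, 1 with the replicate number as the replicate block, 1 with the length trend removed, 0 with ribosomal RNA as a covariate and 0 in the compared groups alone. With that covariate NCD and HFD_lard went from 4 to 2 each. BFD went from 2 to 1 in the compared groups alone and to 6 at an adjusted p under 0.05. For the ratio over NoOdour, 1 with NCD became 0 with no replicate block, 0 with the number as the replicate block, 0 with the covariate, 0 with the length trend removed and 2 at 0.05. For BFD 1 became 0 with the covariate, 0 with the length trend removed and 0 in the groups alone, and for HFD_lard and any odour 1 became 2 at 0.05.

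For the input over NoOdour, 0 with NCD became 1 by DESeq2 and 2 at 0.05. For BFD 1 became 2 by DESeq2, 3 at 0.05 and 0 with the number as the replicate block, the covariate, the length trend removed or the groups alone. For HFD_lard 0 became 2 at 0.05, and for any odour 0 became 2 by DESeq2, 1 with the length trend removed and 3 at 0.05. Correlated pairs went from 0 to 1 without TMM, that of Foxi1 and Coch. Of the input changes with any odour at an adjusted p under 0.05, those that reversed under the covariate were Ascl3 (0.10), Cftr (-0.02), Gng13 (0.42) and Tfcp2l1 (-0.04). Above 0.05, Trpm5 (-0.46), Pou2f3 (-0.08) and Foxi1 (-0.01) also changed sign under it. The cause was not tested.

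Leaving out each pool gave 0 to 2 calls without odour, 3 to 5 with NCD, 1 to 3 with BFD and 4 to 4 with HFD_lard in the pulldown against input. For the ratio over NoOdour it gave 0 to 1 with NCD, 0 to 1 with BFD, and 1 to 1 with HFD_lard and any odour. For the input it gave 0 to 1 with BFD and any odour and 0 to 0 with NCD and HFD_lard, and all comparisons between odours stayed at 0.

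Of the single genes, 399 values kept their side of the threshold in other settings, 52 lost and 3 gained the call. The 4 input changes named above as reversed make up the rest. With pools left out 1190 kept their side, 110 lost and 2 gained the call. Values that kept their side could change sign. Cftr in the pulldown against input without odour ran from -0.17 to 0.11 over the settings and from -0.09 to 0.20 with pools left out. Of values with other prior counts 179 moved by less than 1 SD and 13 by more. Inputs of the same number correlated across odours at a median of 0.0251 (27 pairs) against -0.00346 (138 pairs), and 3 of 21 were closest to their own number, a hint from the data. With the number as the replicate block, the calls of Coch in the pulldown with NCD (0.35, adjusted p 0.00225) and of Gng13 with any odour in the ratio (1.04, 0.00102) and the input (-0.82, 0.0026) were lost too. With or without a replicate block, no other of these counts moved by more than 1.5 times. The length trend and the pulldowns alone were chosen after seeing the data.

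Pools hide single animals. Counts of Trpm5, Gnat3 and Gnb3 were too few for small changes to be seen, and Chat and Il25 could not be tested. The ribosomal RNA share differs between inputs with and without an odour and cannot be told apart from it there. In the pulldowns it was also higher on average without odour, and its part in the pulldown levels was not tested. Cell numbers were not measured, nor was the share of all genes whose pools with and without an odour do not overlap.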
